A study of Mus musculus with 6 samples.

Results

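Bulk RNA-sequencing of whole lungs was used to examine 8 genes by which leukocytes hold on to the vessel wall. They were the rows of the deposited count table whose gene symbol was Vcam1, Icam1, Icam2, Jam2, Sele, Selp, Selplg or Ackr1, and all 8 were found among the 49568 symbols. The table held 3 TNF+ and 3 TNF- female mice, 4 months old and on a C57BL/6 background, with 1 library per mouse. TNF+ mice (TNF-Tg in the sample labels) carry the human TNF gene as a transgene, and TNF- mice (WT) are littermates without it. TNF+ mice come from a single transgenic line, and which cells express the transgene in the lung is not given in the sources used here. The labels give the cell type as primary cells, while the methods describe whole lung, so the counts are a mixture of all lung cells. Fewer cells of a type and less RNA per cell cannot be told apart in such samples.

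Circulating leukocytes leave the blood in steps. Selectins on the endothelium (E-selectin from Sele, P-selectin from Selp) catch passing cells through sugar-bearing ligands such as P-selectin glycoprotein ligand, the product of Selplg, and the cells roll. Integrins then bind immunoglobulin family molecules on the endothelium, VCAM-1, ICAM-1 and ICAM-2, and the cells stop. JAM-B, the product of Jam2, sits at endothelial junctions, through which cells then pass. Ackr1 encodes the Duffy antigen receptor, an atypical chemokine receptor of venular endothelium that binds many inflammatory chemokines without signalling through G proteins. TNF is a textbook inducer of VCAM-1, ICAM-1 and E-selectin in cultured endothelium, through the transcription factor NF-kB.

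Total counts per lung lay between 25396923 and 32529408, and 3 counts, the smallest number taken as detected, corresponded to 0.0882 to 0.131 CPM (counts scaled to the library size after TMM adjustment). This floor reflects counting error alone. Replicates of each genotype differed by more than sampling noise (their chi-square was 51.3 to 155 times its degrees of freedom). A pair of lungs stood apart. In TNF+ replicate 1, 5.22% of counts lay on Gm42418, against at most 0.274% in the others, and TNF- replicate 1 held 108132 counts of 4 squamous epithelium genes, against at most 73 in the others. The same lung held 42017 counts of 4 skeletal muscle genes, against at most 1013 in the others. The count of these genes called lower in TNF+ lungs was 1 of the 1 tested squamous gene (0.156 to 0.785 against 1.24 to 3420 CPM summed over all 4) and 2 of the 4 muscle genes (12.6 to 31.6 against 27.4 to 1330 CPM). With 1 lung left out the counts ran from 0 to 1 and from 0 to 4, and without TNF- replicate 1 each was 1. The mouse Tnf gene had 106, 213 and 405 counts in TNF+ lungs and 16, 14 and 35 in TNF- lungs, while the human transgene is not a row of the table. Ager, a marker of alveolar type 1 cells, was abundant in every lung (21839 to 67504 normalized counts).

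All 8 adhesion genes passed the filter on low counts and were tested among 19199 genes by the quasi-likelihood test of edgeR (Benjamini-Hochberg adjusted p under 0.05). Ackr1, Vcam1 and Selplg rose in TNF+ lungs, and Icam2 fell. Icam1, Jam2, Sele and Selp did not pass the test. The share of 4 called out of 8 was close to the 47.4% called among all genes tested, so it is not particular to these genes. The 3 higher genes stand against a background of 24.0% called higher, and the 1 lower gene against 23.4% called lower. The TNF+ and TNF- lungs did not overlap for 5 of the 8 genes, against a background of 58.7% without overlap among all genes tested. The median log2 fold change of the 8 genes was 0.63, against 0.035 over all genes tested.

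**Figure D1:**
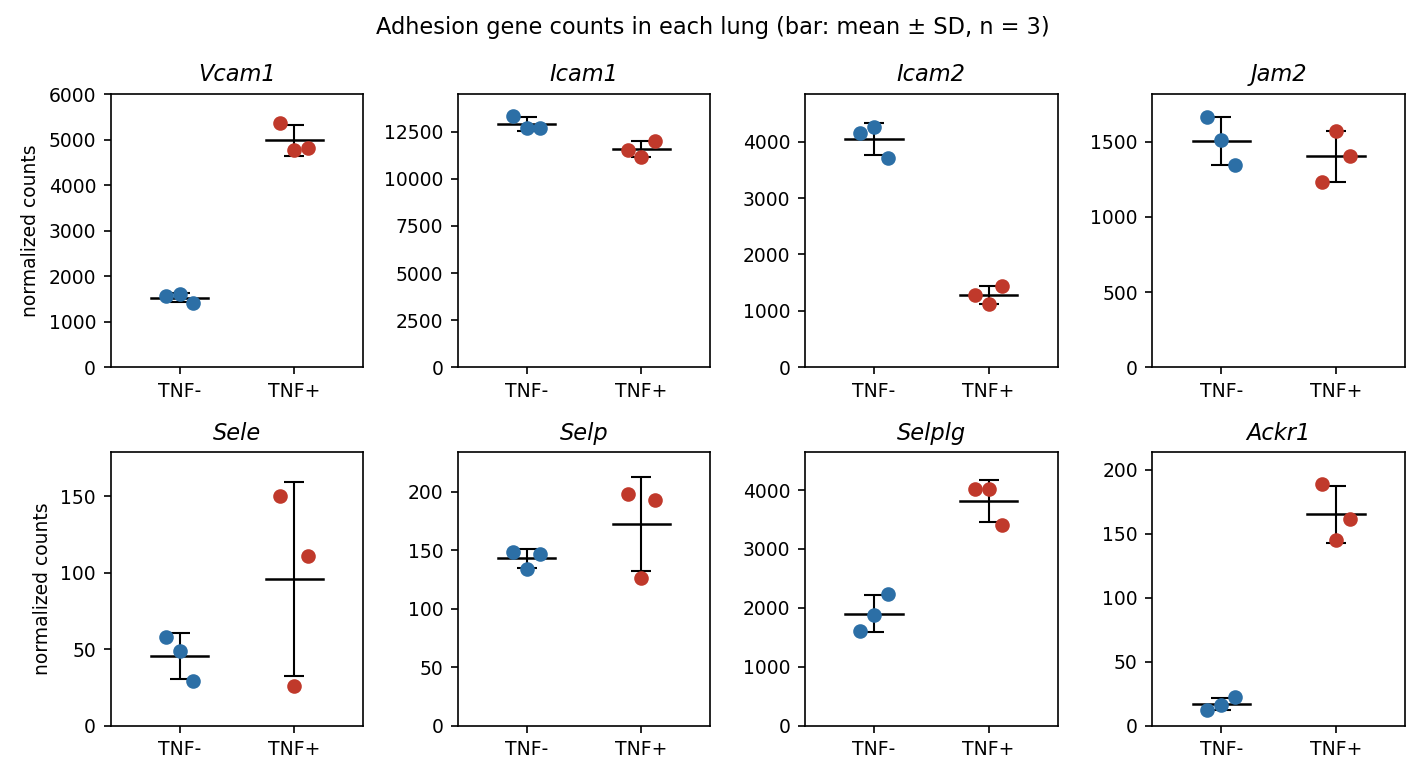
Normalized counts (vertical axes, each from 0) of the 8 adhesion genes in each of 3 TNF- (blue) and 3 TNF+ (red) lungs, with the mean as a line and the SD as a bar. Vcam1, Selplg and Ackr1 lie higher and Icam2 and Icam1 lower in every TNF+ lung than in any TNF- lung, while the groups overlap for Jam2, Sele and Selp.

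Among the immunoglobulin family genes, Vcam1 (ENSMUSG00000027962.14, chromosome 3 of mm10, 116109949 to 116129688) encodes a receptor for the integrin made of the Itga4 and Itgb1 products. It had 5368, 4771 and 4804 normalized counts (counts scaled to a common library size) in TNF+ lungs and 1556, 1604 and 1411 in TNF- lungs. The lowest TNF+ lung was far above the highest TNF- lung. Which lung cells these counts came from was not tested. The TNF+ mean of 4981.1 ± 335.3 (SD, n = 3) was 3.27-fold the TNF- mean of 1523.7 ± 100.5 (SD, n = 3), and the gene rose by 1.71 on the log2 scale (SE 0.10, edgeR adjusted p = 1.27e-05).

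Icam1 (ENSMUSG00000037405.8, chromosome 9, 21015985 to 21028817) encodes a ligand of the leukocyte integrins that contain the Itgb2 product, and in the mouse lung it is also known from alveolar type 1 cells. Its normalized counts were 11537, 11186 and 12026 in TNF+ lungs and 13348, 12681 and 12695 in TNF- lungs. The TNF+ lungs all lay below the TNF- lungs, by a small margin. The log2 fold change of -0.16 (SE 0.10) did not pass the test (edgeR adjusted p = 0.235). An unstranded count would also hold reads of Gm47079, an antisense gene that overlaps 11.7% of the exon bases of Icam1, and the strand setting of the counting is not given in the sources used here.

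Icam2 (ENSMUSG00000001029.15, chromosome 11, 106377656 to 106388075) encodes a constitutive endothelial ligand of the Itgal and Itgb2 integrin, also carried by platelets. It had 1275, 1112 and 1431 normalized counts in TNF+ lungs against 4148, 4267 and 3717 in TNF- lungs. No TNF+ lung came near the TNF- range. It fell by 1.67 on the log2 scale (SE 0.12, edgeR adjusted p = 2.77e-05), to a level 3.18-fold lower.

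Jam2 (ENSMUSG00000053062.16, chromosome 16, 84774123 to 84825928), the junction gene, had 1235, 1573 and 1405 normalized counts in TNF+ lungs and 1664, 1510 and 1345 in TNF- lungs. The groups overlapped. Its log2 fold change of -0.10 (SE 0.12) did not pass the test (edgeR adjusted p = 0.522), and it was 0.02 when replicate 1 of both genotypes was left out.

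The selectin genes were low in every lung. They are neighbours on chromosome 1, Sele (ENSMUSG00000026582.6) at 164048234 to 164057677 and Selp (ENSMUSG00000026580.16) at 164115264 to 164150026, on the plus strand. Sele had 150, 25.9 and 111 normalized counts in TNF+ lungs and 58.3, 48.9 and 29.3 in TNF- lungs. In TNF+ replicates 1 and 3 it was above every TNF- lung, and in TNF+ replicate 2 it was below all of them. The log2 fold change of 1.07 (SE 0.56) did not pass the test (edgeR adjusted p = 0.153). The value depended on single lungs: without TNF+ replicate 2 the log2 fold change was 1.52 (SE 0.33, edgeR adjusted p = 0.0111), and without TNF+ replicate 1 it was 0.57 (edgeR adjusted p = 0.476).

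Selp, which encodes a selectin stored in platelets as well as in endothelium, had 198, 126 and 193 normalized counts in TNF+ lungs against 149, 134 and 147 in TNF- lungs. As for Sele, TNF+ replicate 2 was the lowest of the 6 lungs. The log2 fold change was 0.26 (SE 0.21, edgeR adjusted p = 0.327), and with a TNF+ lung left out it ran from 0.12 without replicate 1 (edgeR adjusted p = 0.715) to 0.45 without replicate 2 (edgeR adjusted p = 0.0802). Gm16587 and Gm16548, on the opposite strand, overlap 4.21% and 9.93% of the exon bases of Selp, and neither had more than 3 counts in any lung.

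Selplg (ENSMUSG00000048163.13, chromosome 5, 113818536 to 113832644), the leukocyte ligand of the selectins, had 4022, 4022 and 3407 normalized counts in TNF+ lungs and 1608, 1871 and 2229 in TNF- lungs. All TNF+ lungs were above all TNF- lungs. It rose 2.01-fold (log2 fold change 1.00, SE 0.14, edgeR adjusted p = 0.000669). The leukocyte markers rose with it: of 8 such genes, among them Ptprc, which encodes the pan-leukocyte surface protein CD45, 7 were higher in TNF+ lungs and none was lower. Their summed level was 3050 to 3490 CPM in TNF+ and 1080 to 1400 CPM in TNF- lungs, and none of the 8 was at 0 in any lung. Against the mean log2 CPM of these markers in the same lung, Selplg stood at -0.99 ± 0.11 (SD of 3 lungs) with the transgene and at -0.54 ± 0.04 without it, a difference of -0.45 (exact permutation test, two-sided, p = 0.1, the smallest that 3 lungs against 3 allow).

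Ackr1 (ENSMUSG00000037872.5, chromosome 1, 173331886 to 173333750, minus strand) changed most of the 8 genes. It had 189, 145 and 161 normalized counts in TNF+ lungs and 12.4, 16.3 and 22.2 in TNF- lungs. The lowest TNF+ lung was several times the highest TNF- lung. The log2 fold change was 3.26 (SE 0.27, edgeR adjusted p = 4.9e-05), or 9.61-fold, higher than the log2 fold change of 97.7% of the genes tested.

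The count of Ackr1 is uncertain for 1 reason of annotation. Cadm3 (ENSMUSG00000005338.13, chromosome 1, 173333258 to 173367695), which encodes a cell adhesion molecule known from neurons, lies on the same strand and shares 361 bases with the exons of Ackr1, 25.7% of them. Cadm3 had 467, 698 and 751 counts in TNF+ lungs and 160, 94 and 114 in TNF- lungs, and it rose as well (log2 fold change 2.57, SE 0.21, edgeR adjusted p = 4.79e-05). The ratio of Ackr1 to Cadm3 counts was 0.306, 0.201 and 0.228 in TNF+ lungs and 0.0813, 0.181 and 0.219 in TNF- lungs, so the ratios of the genotypes overlapped. How reads on the shared bases were assigned is not given in the sources used here, and their part in the rise was not tested.

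**Figure D2:**
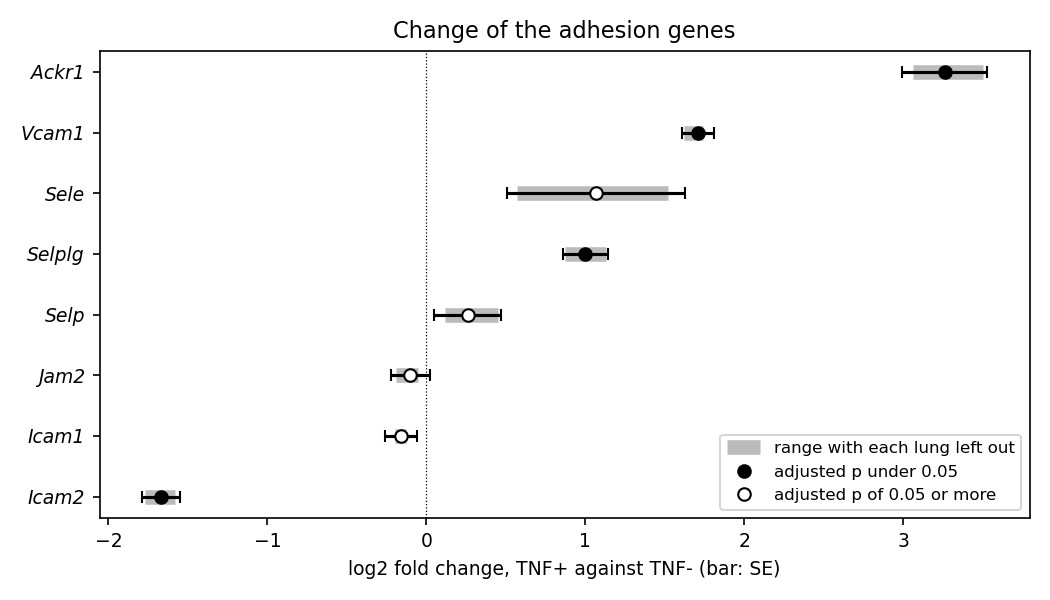
Log2 fold change of TNF+ against TNF- lungs (horizontal axis) for the 8 adhesion genes, with the SE as a bar, filled points for an adjusted p under 0.05, and a grey band from the lowest to the highest value when each of the 6 lungs is left out in turn. Ackr1, at 3.26, and Icam2, at -1.67, mark the ends, and the band of Sele runs from 0.57 to 1.52.

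The sequences around the start sites are shown for Icam1 and Sele, textbook targets of TNF that were not called, beside Ackr1, which rose most. They run from 250 bases before to 50 bases after the RefSeq start, 5′ to 3′, on GRCm38.p6. The RefSeq start of Ackr1 lies 247 bases inside the gene as GENCODE draws it, so 297 of the 300 bases of its window fall within the positions given above. The starts of Sele and Selp are the same in both annotations, and the RefSeq start of Icam1 lies 45 bases before the GENCODE start. Selp also had an entry in the table used here, and Vcam1, Icam2, Selplg and Jam2 had none. Capitals mark the letters GGANNTTCC, a pattern of the kind that NF-kB binds, searched on both strands and chosen after the sequences had been seen. It was found once each in Sele, 145 bases before the start, and in Icam1, 153 bases before the start, and it was not found in these windows of Ackr1 and Selp. Of all 32851 such windows, 1399 (4.26%) held it. Which windows match depends on the pattern chosen. With 1 more spacer base (GGA, any 3 bases, then TTCC, on both strands), the Ackr1 window had 2 matches, those of Icam1, Sele and Selp had none, and 3.88% of all windows held it. A match describes the letters only.
Icam1, chr9:21015690-21015989, plus strand: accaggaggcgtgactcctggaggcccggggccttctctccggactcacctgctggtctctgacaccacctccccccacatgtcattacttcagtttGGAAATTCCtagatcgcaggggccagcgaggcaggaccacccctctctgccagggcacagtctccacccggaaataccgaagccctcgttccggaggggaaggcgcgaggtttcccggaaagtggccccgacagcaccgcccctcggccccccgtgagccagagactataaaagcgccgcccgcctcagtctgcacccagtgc
Sele, chr1:164047984-164048283, plus strand: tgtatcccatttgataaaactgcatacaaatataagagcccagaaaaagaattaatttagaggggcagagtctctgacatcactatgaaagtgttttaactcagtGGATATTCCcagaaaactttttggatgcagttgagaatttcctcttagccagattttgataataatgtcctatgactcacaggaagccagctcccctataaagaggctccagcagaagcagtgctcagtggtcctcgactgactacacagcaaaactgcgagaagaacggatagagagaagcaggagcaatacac
Ackr1, chr1:173333454-173333753, minus strand: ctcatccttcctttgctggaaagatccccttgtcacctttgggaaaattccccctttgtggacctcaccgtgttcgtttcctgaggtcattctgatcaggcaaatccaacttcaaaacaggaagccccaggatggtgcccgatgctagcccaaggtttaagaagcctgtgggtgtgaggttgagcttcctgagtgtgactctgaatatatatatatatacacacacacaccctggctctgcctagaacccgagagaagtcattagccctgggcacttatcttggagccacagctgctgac

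Levels were compared between genes as CPM per kilobase of exon, because longer transcripts collect more reads. In TNF- lungs Icam1 stood highest at 98.0 ± 2.89 (SD, n = 3), then Icam2 at 70.3 ± 5.03 and Selplg at 14.7 ± 2.41. Jam2 at 8.25 ± 0.871 and Vcam1 at 5.68 ± 0.375 followed, and Selp at 1.07 ± 0.0599, Sele at 0.517 ± 0.168 and Ackr1 at 0.400 ± 0.116 were lowest. Neighbours in this order did not overlap except Sele and Ackr1. In TNF+ lungs Icam1 was again highest, at 87.9 ± 3.20, and Selplg followed at 29.6 ± 2.75. Icam2 at 22.1 ± 2.78 and Vcam1 at 18.6 ± 1.25 came next, with overlapping ranges. Ackr1, at 3.88 ± 0.520, lay above Selp (1.29 ± 0.299) and Sele (1.09 ± 0.723), whose ranges overlapped. Thus Vcam1 was below Jam2 in TNF- lungs and above it in TNF+ lungs, and Ackr1 moved from the last place to the sixth, counted from the highest.

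**Figure D3:**
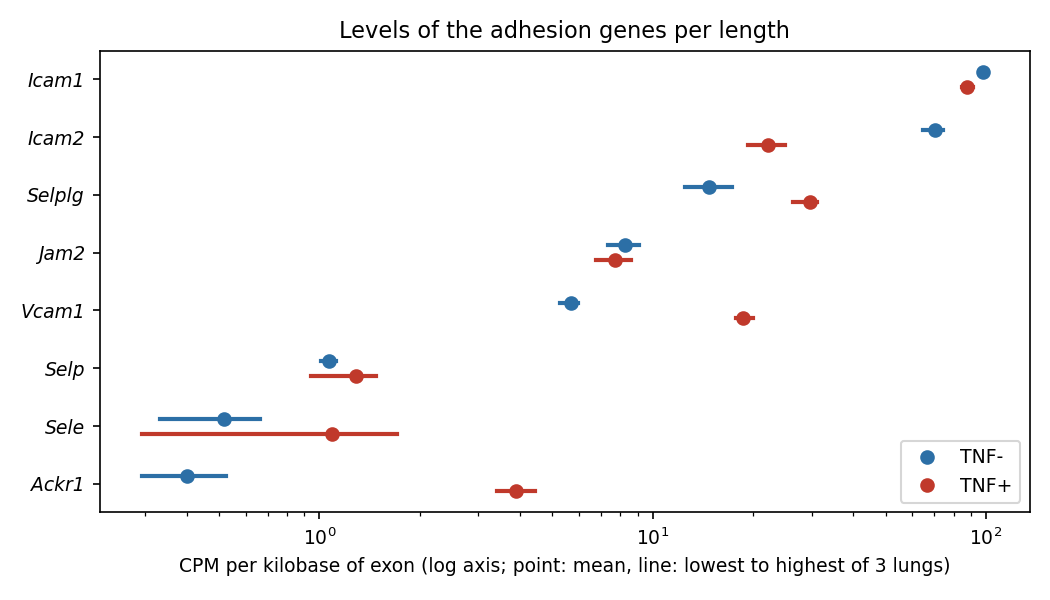
Level of each adhesion gene as CPM per kilobase of exon (horizontal log axis) in TNF- (blue) and TNF+ (red) lungs, with the mean as a point and a line from the lowest to the highest of 3 lungs. The genes are in their TNF- order, from Icam1 at 98.0 to Ackr1 at 0.400, and Icam2, Selplg, Vcam1 and Ackr1 shift between the genotypes.

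Whether related genes changed by different amounts was tested on the difference of their log2 CPM in each lung, for 5 pairs. Icam1 minus Icam2 was 3.19 ± 0.13 (SD, n = 3) in TNF+ and 1.68 ± 0.10 in TNF- lungs, so the balance between the ICAM genes shifted toward Icam1 by 1.52. Vcam1 minus Icam1 rose by 1.86, from -3.08 ± 0.09 to -1.22 ± 0.11. Selp minus Selplg, a receptor and its ligand, went from -3.70 ± 0.26 to -4.48 ± 0.44, and Selp minus Ackr1, both genes of venular endothelium, from 2.97 ± 0.39 to 0.04 ± 0.22. For these 4 pairs the groups did not overlap, and each had an exact permutation p of 0.1 (two-sided, adjusted p = 0.125 over the 5 pairs), where 3 against 3 cannot go below 0.1. Sele minus Selp overlapped between the genotypes (difference of 0.54, exact permutation p = 0.4).

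Markers of the cells that carry these molecules moved between the genotypes too. Of 10 endothelial markers 9 fell in TNF+ lungs, among them Cdh5 (VE-cadherin, log2 fold change -1.17, SE 0.19, edgeR adjusted p = 0.00135) and Pecam1 (log2 fold change -0.56, SE 0.12, edgeR adjusted p = 0.00713). Emcn, which encodes the endothelial sialomucin endomucin and was named after its values were seen, was the 1 that rose (log2 fold change 0.93, SE 0.13). The summed level of the 10 markers was 2240 to 2610 CPM in TNF+ and 4040 to 4900 CPM in TNF- lungs, and none was at 0 in any lung. Of 4 venous endothelial markers 3 fell and none rose (286 to 316 against 1410 to 1830 CPM). All 8 alveolar type 1 markers fell (1430 to 1690 against 4140 to 4490 CPM), and all 6 macrophage markers rose (9210 to 10100 against 2880 to 2940 CPM). Of 8 platelet markers 7 fell while Pf4 rose (median log2 fold change -3.18). Their sum, 79.9 to 103 against 169 to 236 CPM, understates this fall because it includes Pf4. In TNF+ lungs Pf4 had 1918 to 2338 normalized counts and each of the other 7 had at most 347. Of 8 fibroblast markers 6 fell (1090 to 1210 against 2730 to 3680 CPM), of 6 mural markers 4 fell and 1 rose (647 to 742 against 1000 to 1130 CPM), and of 4 erythroid markers tested 3 fell (3910 to 5760 against 16000 to 29300 CPM). The part of these shifts in the values of the adhesion genes was not tested, apart from the endothelial reference that follows.

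Each gene was set against the mean log2 CPM of the 10 endothelial markers in the same lung. Vcam1 stood at 0.02, -0.05 and -0.26 on this scale in TNF+ lungs and at -2.75, -2.68 and -2.71 in TNF- lungs, a difference of 2.61. Relative to the markers Icam1 was higher in TNF+ lungs (1.12 ± 0.06 against 0.37 ± 0.08, SD, n = 3, a difference of 0.75), as were Jam2 (difference of 0.80) and Selp (difference of 1.14), none of which passed the test on library-scaled counts. Icam2 was lower, at -2.07 ± 0.07 against -1.30 ± 0.03, a difference of -0.77, where the library-scaled value was -1.67. Selplg and Ackr1 were higher by 1.92 and 4.07. Selplg is a leukocyte gene, and against the leukocyte markers, which rose, its difference was -0.45, as given above. In these 7 genes the groups did not overlap and the exact permutation p was 0.1, the smallest possible (two-sided, adjusted p = 0.114 over the 8 genes). Sele, higher by 1.68, overlapped (exact permutation p = 0.2). The sign of the difference for Icam1 and Jam2 thus depended on the reference, below 0 per library, where neither was called, and above 0 per endothelial marker.

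**Figure D4:**
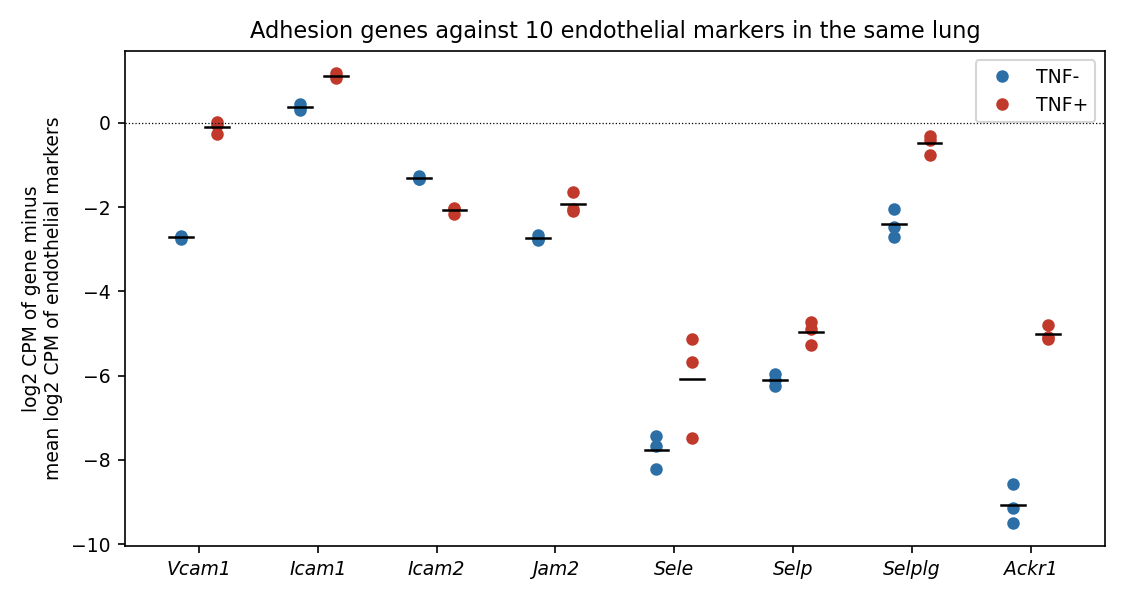
Log2 CPM of each adhesion gene minus the mean log2 CPM of 10 endothelial markers in the same lung (vertical axis) for 3 TNF- (blue) and 3 TNF+ (red) lungs, with group means as lines. Icam2 is the gene whose TNF+ lungs lie below its TNF- lungs, and Ackr1 shows the largest shift, 4.07.

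Other genes of the adhesion cascade were counted by role, over 68 tested genes in 7 lists. In TNF+ lungs 26 of them rose and 22 fell, 70.6% of those tested against 47.4% of all genes, and their median log2 fold change was 0.11. The lists are counted here as descriptions, with no test of a list, and Pecam1, Cdh5 and Vwf are also among the markers above.

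The integrins that bind the vessel wall rose in most cases, 6 of 9 being higher and 1 lower (median log2 fold change 1.31). Itgb2, the beta chain of the receptors for ICAM-1 and ICAM-2, rose by a log2 fold change of 2.10 (SE 0.14, edgeR adjusted p = 1.82e-05), and its alpha chain partner Itgal by 1.02 (SE 0.11). Itga4, the alpha chain of the VCAM-1 receptor, rose by 1.31 (SE 0.10, edgeR adjusted p = 4.39e-05). The other chain of that receptor, Itgb1, did not pass the test (log2 fold change -0.12, SE 0.14, edgeR adjusted p = 0.508). The myeloid alpha chains Itgam (2.64) and Itgax (2.28) had the largest rises, and Itga9 fell by 0.95 on the log2 scale.

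Of 9 selectin and addressin genes, 4 were higher and 4 lower, and without TNF- replicate 2 the lower genes were 2. Madcam1, the mucosal addressin, had 152, 335 and 218 normalized counts in TNF+ lungs and no counts in any TNF- lung, at least 81.7-fold higher against a floor of 3 counts per lung. Spn, which encodes the leukocyte sialomucin CD43, rose by 1.33 on the log2 scale, while Podxl, an endothelial sialomucin gene, and Cd24a fell by 1.52 and 1.06. Glycam1, another addressin and the gene of this list that did not pass, had 142, 69.3 and 109 normalized counts in TNF+ and 0.956, 0 and 58.6 in TNF- lungs (edgeR adjusted p = 0.104). Without TNF- replicate 3 it passed, with an edgeR adjusted p of 0.000263. The list median was 0.65, also with Madcam1 at its bound.

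The enzymes that build the selectin-binding sugars split, with 3 of 10 higher and 4 lower (median log2 fold change -0.09). The leukocyte fucosyltransferase gene Fut7 (1.59) and the core branching enzyme gene Gcnt1 (1.30) rose, and the sulfotransferase genes Chst4 (-2.35) and Chst2 (-1.09) fell, all as log2 fold changes. Of 12 tested junction and immunoglobulin family genes, 8 fell and 1 rose (median -0.63). With replicate 1 of both genotypes left out, 5 were called lower. Jam3, which encodes JAM-C, a binding partner of JAM-B, was the 1 that rose, by 0.97 (SE 0.14, edgeR adjusted p = 0.000877), whereas Cdh5 and Esam (-1.04) fell most.

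In the list of 8 chemokines bound by Ackr1 and 3 other atypical receptors, 4 chemokine genes were higher and none was lower, while all 3 receptor genes were lower (median log2 fold change of the 11 genes 0.14). The chemokine genes Cxcl2 (6.92, SE 1.19) and Ccl2 (6.32, SE 0.49) had the largest rises on the log2 scale. Both were among the chemokine genes that the filter of 10 counts in all lungs dropped, having fewer in at least 1 TNF- lung. The size of the Cxcl2 change depended on 1 lung, with 2220 normalized counts in TNF+ replicate 1 and only 207 and 230 in TNF+ replicates 2 and 3, compared with 9.56, 3.83 and 8.0 in TNF- lungs. Without TNF+ replicate 1 its log2 fold change was 4.88 (edgeR adjusted p = 0.000116), and DESeq2 gave no adjusted p for it. The other atypical receptors went opposite to Ackr1, Ackr2 falling by 2.55 (edgeR adjusted p = 5.09e-06) and Ackr4 by 2.38 (edgeR adjusted p = 0.00118) on the log2 scale.

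Of 12 TNF receptor and NF-kB genes, 7 rose and 0 passed as lower by edgeR (median log2 fold change 1.13), led by Tnfaip3, a feedback inhibitor of NF-kB (3.74, SE 0.18), and the subunit gene Relb (2.58, SE 0.16). With DESeq2, with the size factors of DESeq2 in edgeR, or without TNF+ replicate 1, 1 gene was called lower. The chemokine gene Cx3cl1, named after its values were seen, was at the threshold (log2 fold change -0.23, SE 0.08, edgeR adjusted p = 0.05). Of 5 genes of Weibel-Palade bodies, the endothelial granules that store P-selectin, 1 rose and 2 fell (median -0.21). Vwf, which encodes their main content von Willebrand factor, fell by 3.22 on the log2 scale (SE 0.18, edgeR adjusted p = 9.31e-06), Rab27a by 0.38, and Cd63, also a lysosomal gene of many cells, rose by 1.22. Selp, whose product shares these granules, had the uncalled log2 fold change of 0.26 given above.

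**Figure D5:**
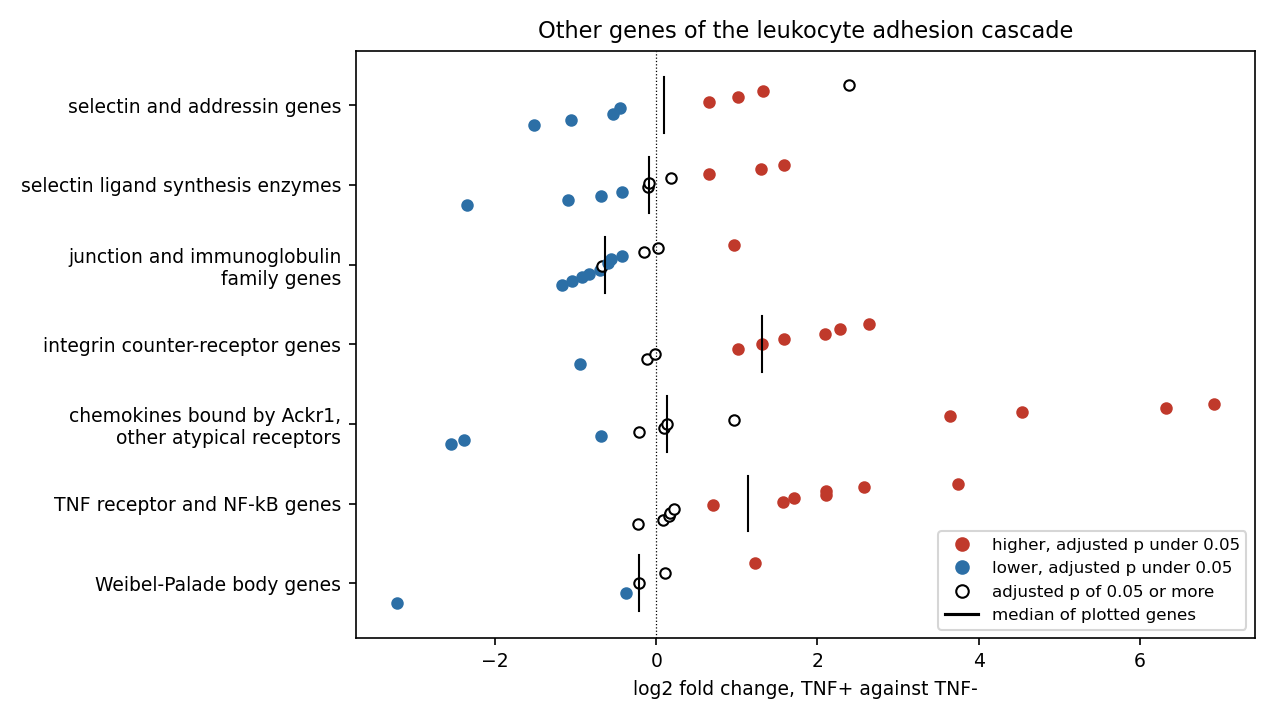
Log2 fold change of TNF+ against TNF- lungs (horizontal axis) for the other tested genes of the adhesion cascade in 7 lists, red when called higher, blue when called lower, open when not called, with a line at the median of the plotted genes. Madcam1, with no counts in TNF- lungs, is left out. Integrin and NF-kB genes lie mainly to the right and junction genes to the left.

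For each gene the most similar genes were sought among those whose log2 CPM averaged 1 or more, by the root mean square difference of centred log2 CPM over the 6 lungs. The closest to Vcam1 was Pstpip2 (0.049), to Icam2 Npr1 (0.058), to Icam1 Atg4b (0.024) and to Jam2 Akap1 (0.031). For Selp it was Tdp2 (0.072), for Selplg Gm12372 (0.037) and for Ackr1 Lst1 (0.113). Sele had no close match, its nearest gene Tro being at 0.387. Sele and Ackr1 averaged below 1 themselves, so they were not among the genes searched and could not be a match. None of the 3 closest genes of any of the 8 was another of the adhesion genes that were searched.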

How the data were processed

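Poly(A) libraries of whole lungs from 3 TNF+ and 3 TNF- mice, grouped by the sample titles, were sequenced by the authors as single-end reads. The authors deposited raw counts per gene symbol, without normalization. Per the submitters' processing notes, reads were cleaned with Trimmomatic (0.36), mapped with STAR (2.5.2b) to GRCm38.p5 and counted with featureCounts, whose version, annotation and strand setting are not given in the sources used here. No column was left out.

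Counts were filtered with filterByExpr, TMM-scaled and tested with edgeR (4.0.16, R 4.3.3) by the quasi-likelihood test, genotype being the only term. P-values were Benjamini-Hochberg adjusted over all genes tested, with a threshold of 0.05. The SE is the log2 fold change divided by the square root of F. Log2 CPM had a prior count of 2. Positions and exon lengths are from GENCODE M21, which held 47240 of the 49568 symbols, and start site sequences are from RefSeq (GRCm38.p6). Exact permutation tests were two-sided. The total counts per lung limit the precision as given above.

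The adhesion genes, their roles and the gene and marker lists were chosen with earlier results of these data known. Named cascade genes are the 2 largest rises and 2 largest falls past the threshold in each list, together with Madcam1, Itga4, Itgb2, Itgal and the markers Pecam1, Cdh5, Ptprc, Pf4, Vwf and Ager. The values of 1 listed gene are not reported here, although it is in the counts. Emcn, Glycam1, Cx3cl1, Cadm3 and Itgb1 were named after their values were seen. For each adhesion gene the 3 most alike genes were sought. Alternatives were other tests (DESeq2 1.42.0 and limma-voom, limma 3.58.1), other scalings (the size factors of DESeq2, or the library total alone), other filters (none, or 10 counts or more in all lungs), a robust fit, a block for replicate number, leaving out single lungs, and requiring a log2 fold change of 1 or more in either direction. The fits were tested on simulated data, for edgeR, DESeq2 and limma-voom alone. Far fewer genes changed in the simulation than were called here, so it does not show how the fits behave at this share.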

Additional observations from a re-analysis of the deposited data

How the results depend on the processing

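The calls of Vcam1, Ackr1, Selplg and Icam2 kept their direction and stayed past the threshold under all alternatives run, with 3 of the adhesion genes higher and 1 lower in each but 1, in which leaving out TNF+ replicate 2 made it 4 higher. When single lungs were left out, log2 fold changes ran from 1.62 to 1.74 for Vcam1, from 3.06 to 3.50 for Ackr1, from 0.87 to 1.13 for Selplg, from -1.77 to -1.58 for Icam2, from -0.20 to -0.13 for Icam1, from 0.57 to 1.52 for Sele, from 0.12 to 0.45 for Selp and from -0.19 to -0.05 for Jam2. Sele passed the threshold without TNF+ replicate 2 and in no other alternative run. With replicate 1 of both genotypes left out together, an alternative chosen after seeing the data, Jam2 changed sign (0.02, adjusted p = 0.931) and 2689 genes in all were called higher, where the full fit called 4610. This alternative has fewer samples. A minimum absolute log2 fold change of 1 left 1980 genes higher and 2340 lower in all, and 9 lower among the cascade genes. In a fit with a replicate block, 3827 genes were called higher and 3859 lower, and no call among the adhesion genes changed. The same-numbered mice are different animals and their deviations from the group means did not go together (correlations across genes of -0.149, -0.004 and -0.242). Glycam1 passed with limma-voom (adjusted p = 0.0126), and Pecam1 and Rab27a lost their calls with replicate 1 of both genotypes left out (adjusted p of 0.0817 and 0.115). The cause was not tested in any of these. The differences of gene pairs and the values relative to endothelial markers kept their sign with a prior count of 0.5, with the median of the markers or Cdh5 alone as reference, and with each lung left out. Sele and Selp had low counts, 25.9 to 198 normalized counts in TNF+ lungs, and whether depth sets their errors was not tested.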
